A study of Mus musculus with 35 samples.

Results

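The Hox genes of the HoxA, HoxB, HoxC and HoxD clusters were followed through the 3 RNA-seq experiments of the series, in mouse embryonic stem cells (ESCs) driven towards neuroectoderm (NE) with retinoic acid (RA). Members were chosen by name, as every row of the deposited expression tables whose symbol is Hox followed by a cluster letter and a paralog number. This gave 37 of the 18930 genes found in any table, out of 39 such genes in the RefSeq annotation. Hoxd10 and Hoxd12 had no row in any table. Hoxa11, Hoxc11 and Hoxc12 were also without rows at day 3 and in the Dnmt1 experiment, which left 34 members in each, and Hoxd11 was without one in the Tet3-CD experiment, which left 36.

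Hox genes encode homeodomain transcription factors that give cells a position along the head-to-tail axis of the embryo. Their order on the chromosome follows the order in which they are used, with low paralog numbers switched on early and anteriorly in the hindbrain and high numbers later and in the trunk and tail. RA from the neighbouring mesoderm switches on the anterior genes directly through retinoic acid receptors, and Polycomb proteins and DNA methylation are among the marks found on silent clusters. In mouse the HoxA cluster lies on chromosome 6, HoxB on chromosome 11, HoxC on chromosome 15 and HoxD on chromosome 2. Paralogs 1 to 3 are called anterior here, 4 to 8 central and 9 to 13 posterior.

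The study asks what the TET3 protein, an enzyme that oxidizes methylated cytosine in DNA, does in NE cells with and without its catalytic activity. All cells derive from V6.5, a male mouse ESC line of mixed 129/C57BL/6 background, and each line is wild type for Tet3 (Tet3+/+), carries amino acid substitutions in the iron-binding site encoded by exon 9 (Tet3m/m, a catalytic mutant), or lacks exon 4 (Tet3-/-, a knockout). In the first experiment cells were cultured without LIF and with 1 µM RA and collected at day 3, with 3 Tet3+/+, 3 Tet3m/m and 2 Tet3-/- samples. A figure legend of the study describes these samples as independent ESC clones, 3 for Tet3+/+, 3 for Tet3m/m and 2 for Tet3-/-. In the second, cells of each genotype received a plasmid for Dnmt1, the maintenance DNA methyltransferase, or its empty vector at day 0 and were then selected with blasticidin, with 2 samples in each of 6 groups. In the third, cells of each genotype were transfected with the HA-tagged catalytic domain (Tet3-CD) or with empty vector, with 1 sample in each of 6 groups. The labels give 72 h of RA for these samples, while the written methods place transfection at day 2 and harvest 48 h later, at day 4. RA was given to every group used here, so no comparison measures the response to RA itself. The labels name no clones in the transfection experiments, and each vector was compared only with its own empty vector.

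The deposited values are normalised read counts. The whole reads recovered from them summed to 36594650 to 47710548 per sample at day 3, 31155842 to 50845950 with the Dnmt1 vectors and 33475041 to 37707719 with the Tet3-CD vectors. Normalised Tet3 counts at day 3 were 4613, 4576 and 5020.0 in Tet3+/+, 2666, 2277 and 1945 in Tet3m/m, and 1796 and 2329 in Tet3-/-. Tet3-/- counts may come from exons outside the deleted one, so the gene total does not by itself check that label. Dnmt1 counts were 14679 and 15225 in Tet3+/+ cells with empty vector and 22799 and 23768 with the Dnmt1 plasmid, and the plasmid samples were also above their empty vector samples in Tet3m/m and Tet3-/- cells. All 11 neuroectoderm markers had rows in every table, with summed levels of 21051 to 28378 in Tet3+/+, 16448 to 21893 in Tet3m/m and 26439 to 31043 in Tet3-/- at day 3. The 8 pluripotency markers summed to 6154 to 10428, 9296 to 23395 and 5013 to 9039 in the same order, and the 9 endoderm markers to 26915 to 29264, 36058 to 43860 and 31416 to 31489. The 7 neural crest markers summed to 3379 to 4233, 1796 to 2725 and 2483 to 2496, and the 6 trophoblast markers to 29697 to 43791, 25002 to 52714 and 65214 to 76822. The 7 hindbrain and spinal cord markers summed to 2050 to 2468, 1683 to 3161 and 2322 to 2410. In bulk RNA a smaller number of cells of a type and less RNA per cell cannot be told apart, and the part of these marker differences in the Hox values was not tested.

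In Tet3+/+ cells at day 3 all 4 clusters were expressed, and the central genes carried most of the level. Per kilobase of exon, Hoxa5, a gene of the lower neck and lung, had the highest mean normalised count of 2460 (2028 to 2818 over 3 samples), followed by Hoxc5 at 1718 and Hoxb8 at 1352. The ranges of neighbours in this order overlapped for most genes, while Hoxa5 lay above Hoxc5 in each sample. The lowest were Hoxd13 at 30.2, Hoxa13 at 6.17 and Hoxd11 at 1.13, all at the posterior end of their clusters. Of the summed level per kilobase, HoxB held 36.5% to 40.1%, HoxA 29.8% to 32.1%, HoxC 24.0% to 26.3% and HoxD 5.45% to 6.18% over the 3 samples. Central genes held 68.4% to 69.5% and posterior genes 8.74% to 11.7%.

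In the Tet3m/m samples the make-up of the Hox output differed from that of Tet3+/+ at day 3. HoxB held 47.6% to 51.0% of the summed level per kilobase and HoxA 21.9% to 24.7%, and neither range overlapped that of Tet3+/+. Central genes held 59.3% to 59.6%, below Tet3+/+, and posterior genes 13.6% to 16.4%, above it. In Tet3-/- samples HoxA held 33.7% to 38.0%, central genes 65.4% to 68.9% and posterior genes 10.1% to 12.5%. These shares are descriptions over 3, 3 and 2 samples and were not tested.

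The comparison of Tet3m/m with Tet3+/+ asks how cells with a catalytically inactive TET3 differ. Tet3 counts were also lower in Tet3m/m, a reduction the study asks readers to weigh. Lost catalysis and a lower Tet3 level cannot be told apart here. Of 34 members, 12 fell and 3 rose in Tet3m/m at day 3 (limma on log2 of the count plus 1, Benjamini-Hochberg adjusted p under 0.05 over 17915 genes and a fold change above 1.5). Among all genes tested, 5.06% rose and 5.19% fell. The median log2 difference over the members was -0.25, against 0.001 over all genes, and 23 members had an unadjusted p under 0.05, a level that 28.6% of all genes reached. The genes that fell were Hoxd1, Hoxd3 and Hoxd4, Hoxa2 to Hoxa6 and Hoxa9, and Hoxc4 to Hoxc6, and those that rose were Hoxb1, Hoxb13 and Hoxd13. By position, 4 of 8 anterior and 7 of 15 central genes fell, against 1 of 11 posterior genes, while 2 posterior genes and 1 anterior gene rose. In 20 of 34 members the Tet3m/m and Tet3+/+ samples did not overlap, and the same held for 36.7% of all genes tested.

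**Figure D1:**
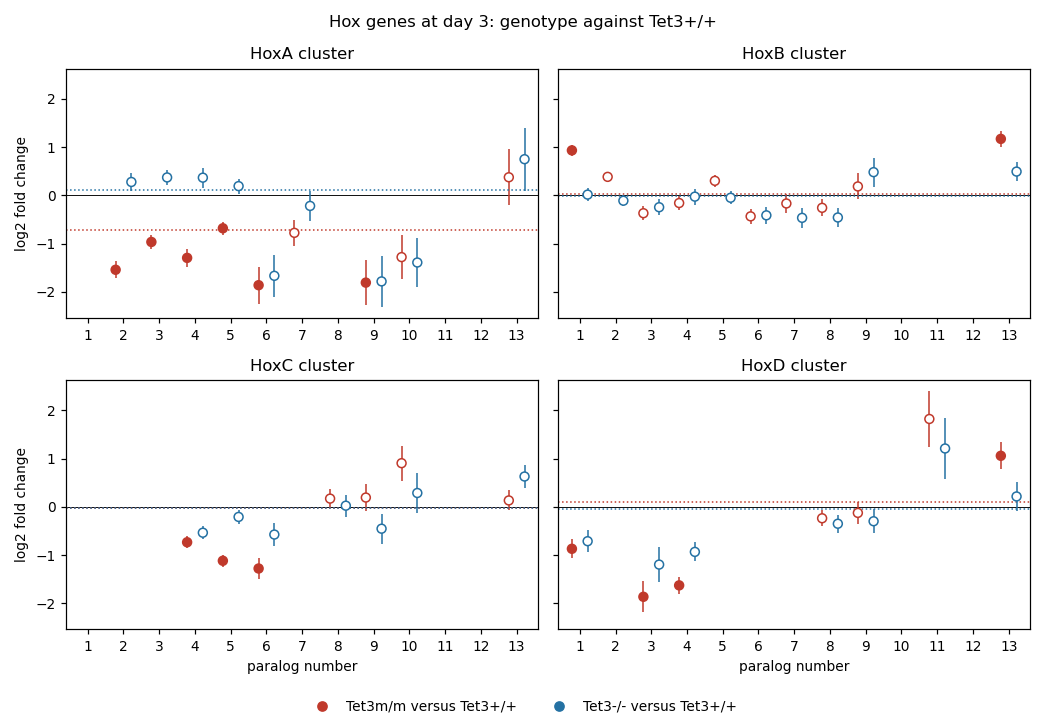
Log2 fold change at day 3 (y axis) by paralog number (x axis), with a panel for each cluster and a colour for each comparison. Filled points passed the test, open points did not, bars are standard errors and the dotted lines are the medians of the genes beside each cluster. The 12 members that fell in Tet3m/m against Tet3+/+ lie in HoxA, HoxC and HoxD, while HoxB has 2 members that rose and none that fell.

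The HoxD cluster split by position, with its anterior end lower and its posterior end higher in Tet3m/m. Hoxd4, an RA-responsive gene of the posterior hindbrain, read 605, 531 and 784 normalised counts in Tet3+/+ and 217, 191 and 205 in Tet3m/m, a log2 difference of -1.63 (SE 0.18, adjusted p = 0.00032). Hoxd3, which patterns the upper neck vertebrae together with Hoxa3, read 174, 221 and 233 against 58.4, 54.0 and 57.0 (log2 difference -1.86, SE 0.32, adjusted p = 0.00388). Hoxd1, a gene of the early hindbrain and of sensory neurons, read 820.2, 767 and 906 against 318, 569 and 516 (log2 difference -0.87, SE 0.20, adjusted p = 0.0164). In all 3 genes every Tet3m/m sample lay below every Tet3+/+ sample, with the narrowest gap in Hoxd1. The Hoxd1 call was lost without Tet3+/+ sample 1 or 3 (adjusted p of up to 0.0718). At the far end of the cluster Hoxd13, a gene of digits and the genital bud, read 94.4, 61.6 and 69.2 in Tet3+/+ and 178, 147 and 143 in Tet3m/m (log2 difference 1.06, SE 0.28, adjusted p = 0.0282). The Hoxd13 call was lost in 4 of 8 fits that left out a sample (without Tet3+/+ sample 2 or 3, Tet3m/m sample 1 or 2), with an adjusted p of up to 0.0975. Hoxd11 read 2.89, 7.47 and 3.95 against 14.3, 21.1 and 20.4, which did not overlap but did not pass the test. Exons of Hoxd3 and Hoxd4 share 9.3% and 13.2% of their bases, so reads there may be credited to either gene.

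For the 3 HoxD genes that fell and for Hoxb1, which rose, the sequence around the RefSeq start site (250 bases before it to 50 after, GRCm38.p6) is shown because members that moved the same way can be compared there. Capitals mark CpG dinucleotides, the bases on which DNA methylation acts. The windows are chr2:74762730-74763029 for Hoxd1, chr2:74711743-74712042 for Hoxd3, chr2:74721728-74722027 for Hoxd4 and chr11:96365508-96365807 for Hoxb1, all on the plus strand.
Hoxd1: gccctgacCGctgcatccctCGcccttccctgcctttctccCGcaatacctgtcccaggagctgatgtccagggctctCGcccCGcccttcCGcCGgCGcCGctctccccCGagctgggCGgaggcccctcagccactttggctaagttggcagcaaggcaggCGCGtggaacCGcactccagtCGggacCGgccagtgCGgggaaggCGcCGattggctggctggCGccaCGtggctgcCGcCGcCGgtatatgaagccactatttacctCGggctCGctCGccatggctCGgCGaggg
Hoxd3: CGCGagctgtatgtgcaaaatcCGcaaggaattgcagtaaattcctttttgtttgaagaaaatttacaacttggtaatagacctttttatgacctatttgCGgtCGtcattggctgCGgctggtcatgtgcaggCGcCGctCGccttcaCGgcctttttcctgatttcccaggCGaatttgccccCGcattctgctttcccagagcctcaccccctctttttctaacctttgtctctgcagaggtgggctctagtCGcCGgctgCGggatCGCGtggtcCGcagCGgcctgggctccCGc
Hoxd4: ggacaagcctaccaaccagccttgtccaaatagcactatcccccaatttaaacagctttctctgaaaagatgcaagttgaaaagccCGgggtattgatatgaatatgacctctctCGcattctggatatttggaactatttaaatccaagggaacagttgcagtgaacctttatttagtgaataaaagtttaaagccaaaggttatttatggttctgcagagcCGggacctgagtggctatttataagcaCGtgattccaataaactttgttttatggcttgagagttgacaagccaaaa
Hoxb1: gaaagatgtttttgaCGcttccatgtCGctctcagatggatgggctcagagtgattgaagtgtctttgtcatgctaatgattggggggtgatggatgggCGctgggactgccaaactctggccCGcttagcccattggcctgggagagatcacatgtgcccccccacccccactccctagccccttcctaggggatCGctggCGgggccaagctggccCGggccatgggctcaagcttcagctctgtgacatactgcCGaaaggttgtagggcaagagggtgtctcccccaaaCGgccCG
The genes that fell did not share a CpG content, since the Hoxd1 window holds 29 CpGs, that of Hoxd3 20 and that of Hoxd4 4, while that of Hoxb1 holds 10. Of all 32851 windows, 12.9% hold at least as many CpGs as Hoxd1, 26.5% as Hoxd3, 68.6% as Hoxd4 and 43.5% as Hoxb1. The 24 windows of the 22 Hox genes that matched by symbol had a median of 14.5 CpGs against 7 over all windows. Most of these genes are from HoxA and HoxD, with only Hoxb1, Hoxb4 and Hoxb8 from HoxB and Hoxc4 from HoxC. Hoxd10 and Hoxd12, which had no expression values, are among them. The letters AGGTCA, the core that retinoic acid receptors read, occur on either strand in 7 of the 24 Hox windows (29.17%), those of Hoxd3 and Hoxd4 among them, and in 16.26% of all windows. The pair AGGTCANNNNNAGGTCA, searched on both strands and a longer match that contains the core, occurs in 0 Hox windows and in 0.009% of all. At so low a share 24 windows cannot show whether Hox genes carry it more or less often. Sequence outside the windows and inexact matches were not searched. These matches are descriptions of the letters in the windows, and no binding or methylation was measured here.

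In the HoxA cluster 6 of 10 members fell in Tet3m/m and none rose, with a median log2 difference of -1.12. Hoxa2, which patterns the hindbrain and the second pharyngeal arch, read 771, 557 and 594 in Tet3+/+ and 193, 212 and 250.5 in Tet3m/m (log2 difference -1.54, SE 0.17, adjusted p = 0.000388). Hoxa4 read 1524, 1095 and 1259 against 492, 525 and 547 (log2 difference -1.30, SE 0.18, adjusted p = 0.00143). Hoxa3, needed for the thymus and parathyroid, read 2417, 1876 and 2226 against 1136, 993 and 1197 (log2 difference -0.97, SE 0.14, adjusted p = 0.00139). In these 3 genes the groups lay far apart, and no Tet3m/m sample came near the lowest Tet3+/+ sample. Hoxa5 read 5290.0, 3806 and 4754 against 2889, 2459 and 3255 (log2 difference -0.68, SE 0.14, adjusted p = 0.00946), and its fold fell under the 1.5-fold limit without Tet3+/+ sample 1 or Tet3m/m sample 2 (log2 difference down to -0.58). Hoxa6 read 124, 146 and 172 against 31.8, 32.0 and 60.1 (log2 difference -1.86, SE 0.39, adjusted p = 0.0101). For both genes every mutant sample stayed below every wild-type sample. Hoxa9, a posterior gene of the blood and limb lineages, read 533, 518 and 777 against 135, 87.7 and 413 (log2 difference -1.81, SE 0.47, adjusted p = 0.0271). Tet3m/m sample 3 lay well above the other two in Hoxa9, and the call was lost in 5 of 8 fits with a sample left out (any Tet3+/+ sample, Tet3m/m sample 1 or 2; adjusted p up to 0.105) and with edgeR and DESeq2.

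Genes beside the HoxA cluster were lower in Tet3m/m too. Of the 25 tested genes on either side of HoxA, 44 of 50 had a lower mean in Tet3m/m, with a median log2 difference of -0.71, against -0.23 over all tested genes of chromosome 6. The matching medians were 0.03 beside HoxB, -0.02 beside HoxC and 0.10 beside HoxD. With the median of the neighbours taken off, 4 of the 6 HoxA genes that fell stayed past 1.5-fold (Hoxa2, Hoxa4, Hoxa6 and Hoxa9), Hoxa3 stood at -0.26 and Hoxa5 at 0.03, the opposite sign. In Tet3-/- against Tet3+/+ the HoxA neighbours had a median of 0.11. The part of the wider region in the HoxA values was not tested.

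In the HoxC cluster the 3 lowest-numbered genes fell and the 4 others had values above 0. Hoxc5 read 5822, 5354 and 4746 in Tet3+/+ and 2582, 2770.4 and 2024 in Tet3m/m (log2 difference -1.12, SE 0.13, adjusted p = 0.000413). Hoxc6, a gene of the brachial spinal cord, read 1166, 839 and 1214 against 413, 358 and 561 (log2 difference -1.28, SE 0.21, adjusted p = 0.00333). Hoxc4 read 3190.0, 3111 and 3030.4 against 1653, 1950.0 and 2030.4 (log2 difference -0.73, SE 0.12, adjusted p = 0.00364). None of the groups overlapped in these 3 genes. Exons of Hoxc5 and Hoxc10 share 5.4% and 8.7% of their bases, which limits how well their reads can be told apart.

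The HoxB cluster held 2 genes that rose, one at each end. Hoxb1, which sets the identity of the fourth hindbrain segment and is held on by its own protein, read 1879, 1907 and 1744 in Tet3+/+ and 3605, 3577 and 3374 in Tet3m/m (log2 difference 0.93, SE 0.12, adjusted p = 0.000857). Hoxb13, a gene of the tail bud and prostate, read 295, 291 and 246 against 735, 619 and 534 (log2 difference 1.17, SE 0.17, adjusted p = 0.00175). For both genes every mutant sample was far above every wild-type sample. Over the 10 members of the cluster the median was 0.01, with 5 higher and 5 lower, and 6 of the 10 had an unadjusted p under 0.05. Hoxb2, the neighbour of Hoxb1 and another hindbrain gene, read 1264, 1092 and 1285 against 1576, 1641 and 1523, which did not overlap but stayed under the 1.5-fold limit. Hoxb3 read 1343, 1145 and 1331 against 811, 1057 and 1104, Hoxb5 2430, 1920.3 and 2540.1 against 2748, 2889 and 2793, and Hoxb6 2175, 1872 and 2702 against 1418, 1751 and 1791. Groups did not overlap in these 3 genes either, and none passed the test. Hoxb4 read 3139, 2766 and 2894 against 2115, 2740.0 and 3113, and Hoxb8 3533, 2672 and 4481 against 2502, 2810.0 and 3513. In both the groups overlapped. Hoxb9 read 1858, 978 and 2422 against 1887, 1598 and 2144, so its wild-type samples spread more widely than the genotypes differed.

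**Figure D2:**
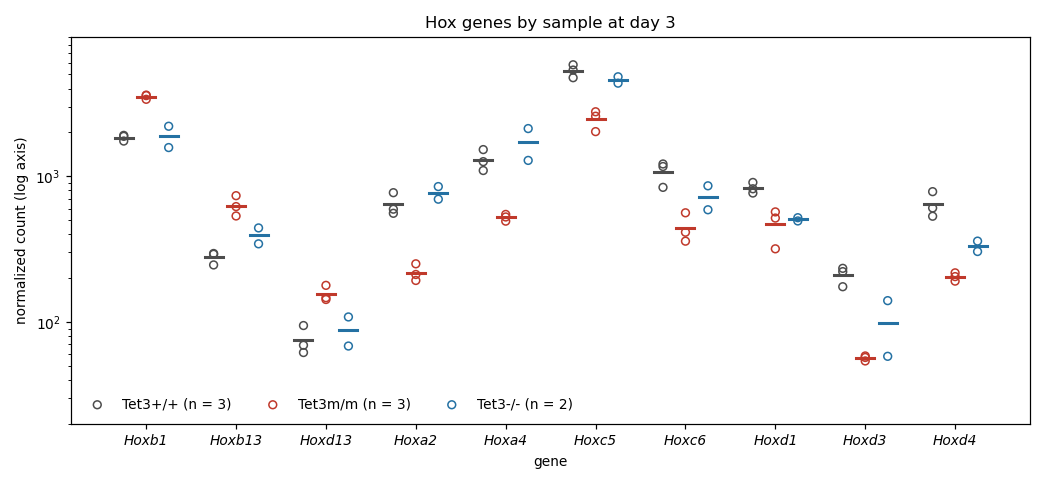
Normalised read counts at day 3 on a log axis for 10 Hox genes (x axis), with a point for each sample coloured by genotype. Tet3m/m points lie above the others in Hoxb1, Hoxb13 and Hoxd13 and below the Tet3+/+ points in Hoxa2, Hoxa4, Hoxc5, Hoxc6, Hoxd1, Hoxd3 and Hoxd4.

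The comparison of Tet3-/- with Tet3+/+ asks what the loss of the protein does. At day 3 no member passed the test (limma), against 0.458% of all genes that rose and 0.184% that fell, and 14 members had an unadjusted p under 0.05 against 20.1% of all genes. The median over the members was -0.16. With edgeR 0 members passed, and with DESeq2 on the recovered reads Hoxa6, Hoxd1, Hoxd3 and Hoxd4 passed, all lower in Tet3-/-. A limma fit of the compared groups alone called Hoxa6, Hoxa9, Hoxd1 and Hoxd4, again all lower. Hoxd4 read 304 and 359 in Tet3-/- against 531 to 784 in Tet3+/+, and Hoxd1 read 493 and 519 against 767 to 906. Hoxa6 read 68.9 and 29.6 against 124 to 172. In each of the 3 genes both knockout samples were below every wild-type sample. Groups did not overlap in 16 of 34 members of this comparison, and the same held for 41.2% of all genes. Hoxa2 at 696 and 849 and Hoxa3 at 2440.1 and 3204 were within or above the Tet3+/+ range. Tet3m/m sample 1 or 3 also bore on this comparison through the shared estimate of spread, since 3 members passed without either of them.

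The direct comparison of Tet3-/- with Tet3m/m asks whether the catalytic mutant and the knockout differ. At day 3, 6 members were higher and 2 lower in Tet3-/-, where 5.41% of all genes were higher and 4.33% lower, and the median over the members was 0.08. Hoxa2 at 696 and 849 against 193 to 250.5 had a log2 difference of 1.82 (SE 0.19, adjusted p = 0.000486), and Hoxa4 at 1284 and 2124 against 492 to 547 one of 1.66 (SE 0.21, adjusted p = 0.000929). Hoxa3 differed by 1.34 (SE 0.15, adjusted p = 0.000655), Hoxa5 by 0.87 (SE 0.16, adjusted p = 0.00598), Hoxc5 by 0.91 (SE 0.14, adjusted p = 0.00327) and Hoxd4 by 0.69 (SE 0.20, adjusted p = 0.0446). The knockout samples lay above every mutant sample in all 6. Hoxb1 read 2204 and 1573 in Tet3-/- against 3374 to 3605 (log2 difference -0.92, SE 0.14, adjusted p = 0.00247), and Hoxb13 read 344 and 442 against 534 to 735 (log2 difference -0.68, SE 0.19, adjusted p = 0.0446). The knockout samples lay below every mutant sample in both. Groups did not overlap in 13 of 34 members, and the same held for 41% of all genes. The calls of Hoxd4 and Hoxb13 hung on single samples, Hoxd4 being lost in 6 of 8 fits with a sample left out (kept without Tet3+/+ sample 3 or Tet3m/m sample 1) and Hoxb13 in 7 of 8 (kept without Tet3m/m sample 3), with adjusted p values of up to 0.179 without Tet3-/- sample 2 and 0.235 without Tet3-/- sample 1. The HoxA neighbours had a median of 0.87 in this comparison. Tet3m/m samples stand in both this comparison and the one with Tet3+/+, so the pair are not separate evidence.

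Other genes of the Hox pathway were counted from fixed lists. None of the 9 TALE cofactors, the Pbx, Meis and Pknox proteins that bind DNA with Hox proteins, passed the test in any day 3 comparison. Of 19 upstream regulators tested, 4 rose and 3 fell in Tet3m/m at day 3. Those that rose were Cyp26c1, an RA-degrading enzyme (log2 difference 1.21), Gbx2, a repressor at the midbrain-hindbrain boundary (1.05), Nr6a1, a timer of trunk Hox genes (0.60), and Dhrs3, which limits RA synthesis (0.58). Those that fell were the RA-binding proteins Crabp1 (-1.90) and Crabp2 (-0.79) and the trunk-to-tail signal Gdf11 (-0.64). Of 21 chromatin regulators only Ezh2, the Polycomb methyltransferase, fell (-1.10), and its gene also lies on chromosome 6. Of 8 transcripts inside or beside the clusters Hoxaas2 (-2.42) and Hoxaas3 (-1.73) fell, both within HoxA, and without a stated strand setting their reads and those of HoxA genes cannot be told apart.

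The empty vector samples of the Dnmt1 experiment compare the same genotypes a second time, in separately grown and transfected cells. In Tet3m/m against Tet3+/+, 13 of 34 members fell and 2 rose, where 10.3% of 18055 genes rose and 10.9% fell. The median over the members was -0.37 against 0.007 over all genes, and 25 members had an unadjusted p under 0.05, a level that 51.4% of all genes reached. Of the 12 genes that fell at day 3, 9 fell here, and 9 of the 13 that fell here had fallen at day 3. Hoxd4 read 127 and 145 in Tet3+/+ and 35.6 and 35.2 in Tet3m/m (log2 difference -1.91, against -1.63 at day 3), Hoxd3 38.5 and 46.4 against 11.9 and 11.7 (-1.76, against -1.86), and Hoxd1 349.7 and 438 against 152 and 124 (-1.51, against -0.87). Hoxc5 read 2276 and 2508 against 403 and 443 (-2.50, against -1.12) and Hoxc6 447 and 522 against 89.6 and 116 (-2.23, against -1.28). In each of these genes both mutant samples lay far below both wild-type samples. Groups did not overlap in 31 of 34 members here, and the same held for 72.3% of all genes. Hoxc4 stood at -1.14 (day 3 -0.73), Hoxa4 at -1.90 (-1.30), Hoxa2 at -1.09 (-1.54) and Hoxa9 at -1.21 (-1.81).

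Hoxa3, Hoxa5, Hoxa6, Hoxb1 and Hoxb13 passed at day 3 and not with empty vector, and Hoxa10, Hoxa13, Hoxc8, Hoxc9 and Hoxc10 passed with empty vector and not at day 3. Hoxa3, Hoxa5 and Hoxa6 had log2 differences of -0.57, -0.22 and -0.36 with empty vector. Hoxa10 (-1.63), Hoxc8 (-0.99), Hoxc9 (-0.60) and Hoxc10 (-0.76) fell with empty vector, beside day 3 log2 differences of -1.28, 0.17, 0.19 and 0.91 in that order. Whether the experiments differ was not tested. Hoxb1 read 2528 and 2491 in Tet3+/+ and 2667 and 2622 in Tet3m/m (log2 difference 0.08), and Hoxb13 92.9 and 76.5 against 98.7 and 86.0. Neither gene passed the test here. Hoxd13 rose again (log2 difference 0.89, SE 0.23, adjusted p = 0.0033) and Hoxa13, its paralog, rose from a mean of 10.9 counts in Tet3+/+ to 34.5 in Tet3m/m (log2 difference 1.60, SE 0.56, adjusted p = 0.0252). The Tet3+/+ empty vector samples carry no usable number and are called a and b. The Hoxd13 call was lost without sample b (adjusted p = 0.0558), that of Hoxa13 without sample a or Tet3m/m sample 2 (adjusted p up to 0.174), and that of Hoxc10 without any of the 4 compared samples (up to 0.107). Hoxc9 fell under 1.5-fold without sample a or Tet3m/m sample 1 (log2 difference of up to -0.38). The neighbours of HoxA had a median of -0.74, with 42 of 50 lower, and 2 of the 4 HoxA genes that fell (Hoxa4 and Hoxa10) stayed past 1.5-fold with that median taken off. The 8 pluripotency markers summed to 36635 to 36725 in Tet3+/+, 92334 to 93838 in Tet3m/m and 4895 to 5336 in Tet3-/- with empty vector, and the 9 endoderm markers to 56852 to 58733, 136710 to 146846 and 32300 to 32703. In the same order the neural crest markers summed to 3675 to 4019, 1372 to 1377 and 3562 to 3822, and the trophoblast markers to 28222 to 28374, 14441 to 15784 and 57265 to 60732. The mesoderm markers, of which Mesp1 had no row, summed to 2880 to 2910, 6139 to 6146 and 1213 to 1429, and the 5 forebrain and midbrain markers to 357 to 382, 834 to 880 and 251 to 283. The neuroectoderm markers summed to 17325 to 17783, 20027 to 20547 and 19782 to 20208, so that Tet3m/m lay above Tet3+/+ here and not at day 3. Hindbrain and spinal cord markers summed to 2438 to 2498, 2468 to 2733 and 2144 to 2227. The part of these cells in the Hox values was not tested.

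**Figure D3:**
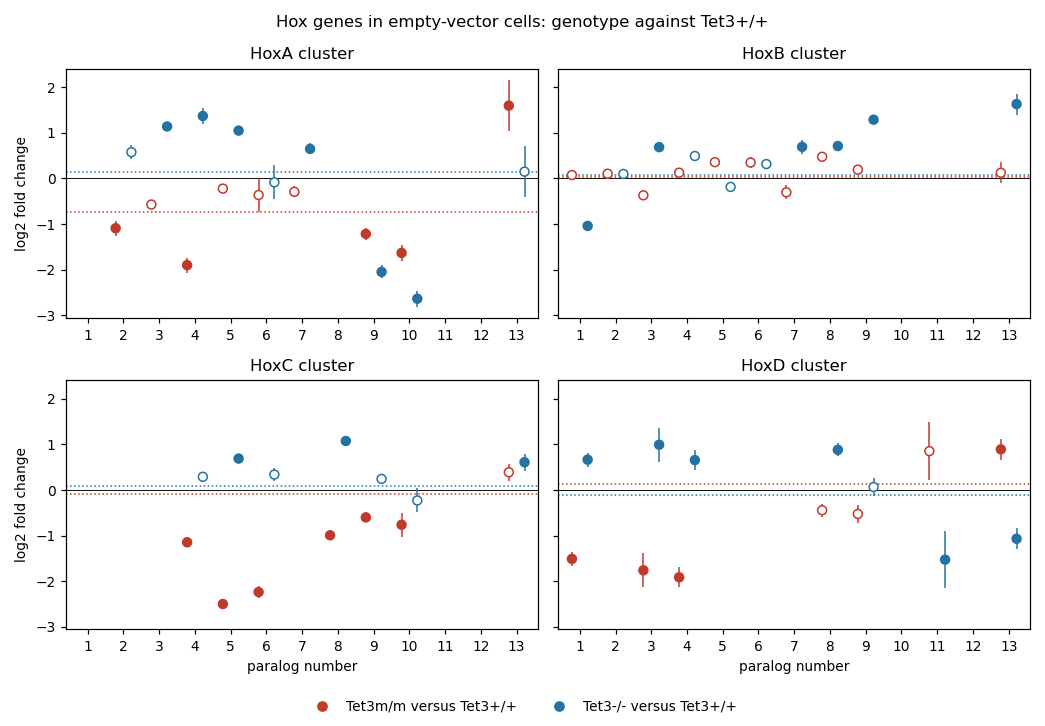
Log2 fold change between genotypes with empty vector in the Dnmt1 experiment (y axis) by paralog number (x axis), drawn as at day 3 with filled points for genes that passed the test, standard errors as bars and dotted medians of neighbouring genes. Hoxc5 and Hoxc6 reach -2.50 and -2.23 in Tet3m/m, while in Tet3-/- most central genes lie above 0 and Hoxa9 and Hoxa10 lie at -2.05 and -2.63.

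In Tet3-/- cells with empty vector most Hox genes stood above Tet3+/+. Of 34 members 16 rose and 5 fell, where 11.0% of all genes rose and 13.9% fell, and the median over the members was 0.54. The other experiments did not show this rise. The median of the same comparison was -0.16 at day 3, where no member passed, and -0.18 between the empty vector samples of the Tet3-CD experiment. Hoxd1 and Hoxd4, which rose here, had both Tet3-/- samples below every Tet3+/+ sample at day 3. Whether the experiments differ was not tested. Hoxa4 read 1189.5 and 1003 against 408 and 437 (log2 difference 1.37, SE 0.17, adjusted p = 5.86e-07), and Hoxb9, a thoracic gene, 1176 and 1040.0 against 419 and 488 (1.29, SE 0.10, adjusted p = 9.39e-10). Hoxb13 read 270.4 and 256 against 92.9 and 76.5 (1.63, SE 0.23, adjusted p = 4.43e-06). Both knockout samples lay above both wild-type samples in these genes. Hoxa3, Hoxa5, Hoxa7, Hoxb3, Hoxb7, Hoxb8, Hoxc5, Hoxc8, Hoxc13, Hoxd1, Hoxd3, Hoxd4 and Hoxd8 rose by 0.61 to 1.14 on the log2 scale. Hoxa9 read 174 and 142 against 681 and 623 (-2.05, SE 0.14, adjusted p = 1.1e-10), and Hoxa10 70.6 and 78.3 against 429 and 508 (-2.63, SE 0.17, adjusted p = 5.34e-11). Hoxb1 read 1220.4 and 1221 against 2528 and 2491 (-1.04, SE 0.07, adjusted p = 6.78e-11), and Hoxd13 (-1.07) and Hoxd11 (-1.52) also fell. In these genes the groups did not overlap, which held for 31 of 34 members and for 77.1% of all genes in this comparison. The Hoxd11 call rests on very few reads and was lost in 9 of 12 fits with a sample left out, without any of the 6 empty vector samples among them (adjusted p up to 0.164), and the rises of Hoxd1, Hoxd3, Hoxd4 and Hoxc13 were lost in 1 to 4 of 12, all of them without Tet3+/+ sample a (adjusted p up to 0.148) and those of Hoxd3, Hoxd4 and Hoxc13 also without Tet3-/- sample 2.

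Against the same Tet3+/+ samples, Hoxa4 thus stood at -1.90 in Tet3m/m and 1.37 in Tet3-/-, Hoxc5 at -2.50 and 0.69, and Hoxd4 at -1.91 and 0.66. Between Tet3-/- and Tet3m/m directly, 19 members were higher and 6 lower in Tet3-/-, where 18.9% of all genes were higher and 20.6% lower, and the median over the members was 0.89. The largest were Hoxa4 with a log2 difference of 3.27, Hoxc5 with 3.19 and Hoxd3 with 2.75, the last from 11.9 and 11.7 in Tet3m/m to 79.6 and 91.0 in Tet3-/-. The neighbours of HoxA had a median of 0.89 in this comparison, with 37 of 50 higher. Of the 7 HoxC members 5 were higher, and of the 7 HoxD members 5 were higher and 2 lower. The 6 lower ones were Hoxa9 (-0.83), Hoxa10 (70.6 and 78.3 counts against 154 and 146), Hoxa13 (-1.45), Hoxb1 (-1.11), Hoxd11 (-2.38) and Hoxd13 (-1.96), of which only Hoxb1 is anterior. The Hoxa13 call was lost without Tet3m/m sample 2 or Tet3-/- sample 1 (adjusted p up to 0.227). So was that of Hoxd9 (log2 difference 0.59), one of the 5 higher HoxD members (adjusted p up to 0.245), which also did not pass with edgeR, DESeq2 or a pseudocount of 5. Among the TALE cofactors 5 of 9 fell in Tet3m/m against Tet3+/+ (among them Meis2 -1.47, Meis3 -1.07, Pknox2 -1.01 and Meis1 -1.01), and 6 of 9 were higher in Tet3-/- than in Tet3m/m. Of 19 upstream regulators 6 fell in Tet3m/m, among them Crabp2 (-2.04), the RA-degrading enzyme Cyp26b1 (-1.95) and the RA receptor Rarb (-0.82), and Gbx2 (1.83) and Cyp26c1 (1.03) rose.

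The Dnmt1 plasmid asks whether more of the maintenance methyltransferase changes these genes. In limma 8.8% of the 34 members passed the test in Tet3+/+ cells and 11.8% in both Tet3m/m and Tet3-/- cells, larger shares than among all genes. An unadjusted p under 0.05 was reached by 15, 14 and 12 members in that order of genotypes, and by 19.9%, 23.3% and 26.3% of all genes. In Tet3+/+ cells 2 members rose and 1 fell (0.421% and 0.753% of all genes), in Tet3m/m 3 rose and 1 fell (1.78% and 0.681%), and in Tet3-/- 2 rose and 2 fell (2.51% and 1.02%). Hoxc8, a thoracic gene, read 565 and 632 with empty vector and 962 and 929.7 with Dnmt1 in Tet3+/+ cells (log2 difference 0.66, SE 0.09, adjusted p = 0.000271), and 282 and 319 against 560.5 and 522 in Tet3m/m (0.85, SE 0.09, adjusted p = 2.65e-06). Hoxc9, its neighbour, read 781 and 713 against 1193 and 1203 in Tet3+/+ (0.68, SE 0.11, adjusted p = 0.000866) and 423 and 573 against 913 and 815 in Tet3m/m (0.81, SE 0.11, adjusted p = 3.87e-05). Both samples with Dnmt1 were above both with empty vector in these cells. Vector groups did not overlap in 23 of 34 members in Tet3+/+ and in 23 in Tet3m/m, beside 52.7% and 53.5% of all genes. In Tet3-/- cells Hoxc8 read 1299 and 1221 against 1309 and 1434, and Hoxc9 926 and 845 against 976 and 1022, and neither passed the test.

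Hoxc6 rose in Tet3m/m cells from 89.6 and 116 to 191 and 185 (log2 difference 0.88, SE 0.14, adjusted p = 0.000228), and did not pass the test in the other genotypes. This left it below the 447 and 522 of Tet3+/+ cells with empty vector. Hoxb5 fell in Tet3m/m cells by 0.61 on the log2 scale (SE 0.08, adjusted p = 1.77e-05). In Tet3-/- cells Hoxc13 rose from 165 and 176 to 287 and 345 (0.88, SE 0.19, adjusted p = 0.00258) and Hoxb9 from 1176 and 1040.0 to 1646 and 1877 (0.67, SE 0.10, adjusted p = 0.000131), while Hoxc5 fell from 3847 and 3859 to 2602 and 2381 (-0.63, SE 0.08, adjusted p = 1.08e-05) and Hoxd1 fell by 0.60 (SE 0.15, adjusted p = 0.0113). Their groups did not overlap, which in Tet3-/- cells held for 20 of 34 members and for 52% of all genes. Hoxd13 fell in Tet3+/+ cells by 0.84 (SE 0.23, adjusted p = 0.0384), a call lost without any of the 8 Tet3+/+ and Tet3m/m samples (adjusted p up to 0.327 without Tet3+/+ Dnmt1 sample 1). The rise of Hoxc8 in Tet3+/+ fell under 1.5-fold without sample a (log2 difference 0.58). In Tet3-/- the calls of Hoxc13 and Hoxc5 were lost without Dnmt1 sample 2, that of Hoxb9 without empty vector or Dnmt1 sample 2, and that of Hoxd1 without either empty vector sample or Dnmt1 sample 1. Hoxc5 and Hoxb9 were lost because their log2 differences came to -0.57 and 0.57 to 0.58, under the 1.5-fold limit, while the adjusted p reached 0.0557 for Hoxc13 and 0.0938 for Hoxd1.

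Whether the Dnmt1 effect differs between genotypes was tested as an interaction in the same fit. Hoxb1 read 2528 and 2491 with empty vector and 1665 and 1761 with Dnmt1 in Tet3+/+, 2667 and 2622 against 1776 and 2086 in Tet3m/m, and 1220.4 and 1221 against 1637 and 1683 in Tet3-/-. It was thus lower with Dnmt1 in the first 2 genotypes and higher in the third. The effect in Tet3-/- exceeded that in Tet3+/+ by 0.99 (SE 0.10, adjusted p = 1.32e-06). Within each genotype the Dnmt1 effect on Hoxb1 stayed under the 1.5-fold limit. Such a difference between Tet3-/- and Tet3+/+ was found in 2 of 34 members, Hoxb1 among them, to be read beside 3.99% of all genes. Between Tet3-/- and Tet3m/m 9 of 34 members had one (among them Hoxb1, Hoxb9, Hoxc5, Hoxc6, Hoxc8, Hoxc9, Hoxc13 and Hoxd1), beside 5.38% of all genes. Between Tet3m/m and Tet3+/+ only Hoxb9 had one (-0.59, SE 0.14, adjusted p = 0.0449), beside 0.604% of all genes, and it was lost in 8 of 12 fits with a sample left out (adjusted p up to 0.234 without Tet3+/+ empty vector sample a). It was kept without sample b, Tet3m/m empty vector sample 2 or either Tet3-/- Dnmt1 sample.

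**Figure D4:**
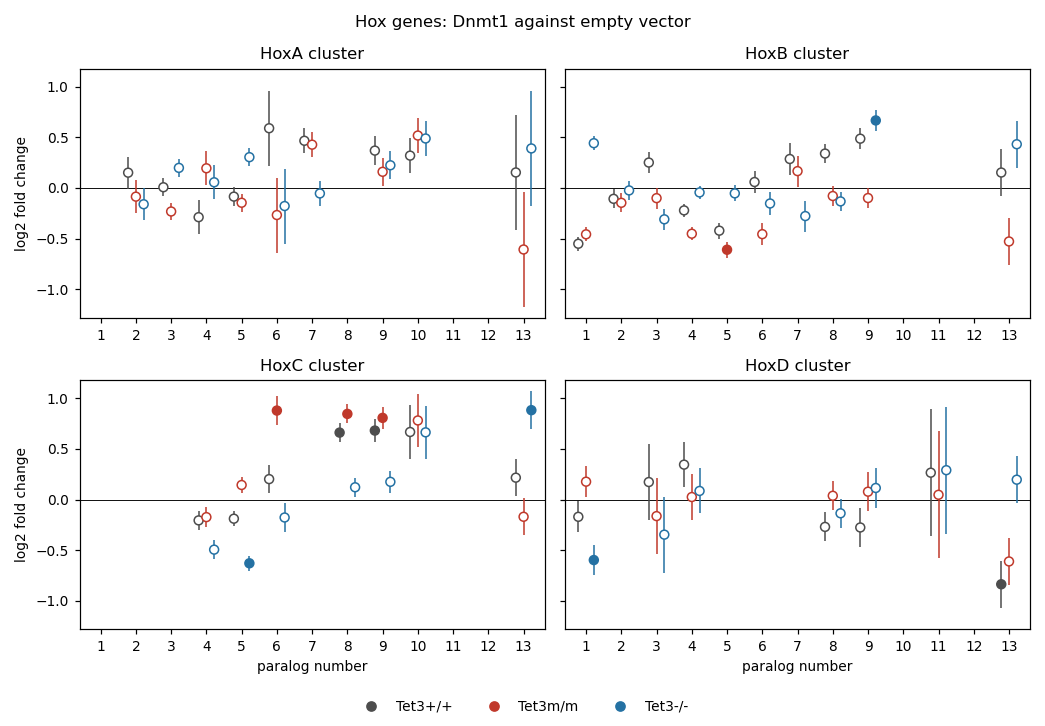
Log2 fold change of the Dnmt1 plasmid against empty vector (y axis) by paralog number (x axis), with a panel for each cluster, a colour for each genotype, filled points for genes that passed the test and standard errors as bars. Most points lie within 1.5-fold of 0, and Hoxb1 lies above 0 in Tet3-/- and below 0 in the other genotypes.

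The Tet3-CD experiment asks what the catalytic domain alone does in each genotype. It has 1 sample per group, so the values below carry no test, and the intervals given are exact 95% counting intervals that cover counting error only. Normalised Tet3 counts without and with the domain were 4755 and 5441 in Tet3+/+, 1849.9 and 5232 in Tet3m/m and 2069.8 and 2759 in Tet3-/-, higher with it each time. Of 35 members with a mean of at least 10 counts, 3 were more than 1.5-fold higher and 1 lower with Tet3-CD in Tet3+/+ cells, where 6.11% and 7.30% of 17481 genes were. In Tet3m/m cells 4 were higher and 0 lower (4.58% and 5.53% of all genes), and the medians over the members were 0.02 and 0.06. In Tet3-/- cells 18 were higher and 0 lower (9.89% and 11.6% of all genes), with a median of 0.62 against -0.02 over all genes. There 31 of 35 members had a ratio above 1, and so did each of the 12 posterior ones, whose median was 0.92.

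The genes with high ratios of Tet3-CD to empty vector in Tet3-/- cells came from several clusters and positions. The highest was that of Hoxc11, from few counts, at 4.01 and 22.7 (log2 ratio 2.24, 0.96 to 4.49). Hoxa5 read 1284 with empty vector and 3497 with Tet3-CD, a log2 ratio of 1.45 (1.35 to 1.54), and Hoxa4 399.9 and 976, a ratio of 1.29 (1.12 to 1.46). Hoxc10, a lumbar gene, read 82.2 and 261, a log2 ratio of 1.65 (1.30 to 2.04), Hoxc13 136 and 371, one of 1.44 (1.16 to 1.74), and Hoxb9 693 and 1544, one of 1.16 (1.03 to 1.29). These intervals lie wholly above the 1.5-fold limit, and so do those of Hoxb13 (log2 ratio 1.12), Hoxc8 (1.04), Hoxb5 (0.95), Hoxb2 (0.81), Hoxa3 (0.79) and Hoxb1 (0.75). In Tet3+/+ cells Hoxa5 read 1515 and 1537 and in Tet3m/m cells 2316 and 2175, with log2 ratios of 0.02 and -0.09. Hoxd3 and Hoxd4, which fell in Tet3m/m at day 3, read 20.5 and 45.1 and 77.3 and 125 in Tet3m/m cells without and with Tet3-CD, log2 ratios of 1.10 (0.38 to 1.94) and 0.69 (0.29 to 1.11), beside 54.5 and 141 in Tet3+/+ cells with empty vector. All other genes that fell at day 3, Hoxa5 among them, stayed within 1.5-fold in Tet3m/m cells. Their log2 ratios ran from -0.32 for Hoxa4 to 0.38 for Hoxa2. Hoxb1 read 283 and 272 in Tet3+/+, 1989.5 and 2144 in Tet3m/m and 528 and 890.1 in Tet3-/- without and with Tet3-CD. Its level in Tet3m/m was the highest with either vector. The 9 endoderm markers summed to 187995 in Tet3+/+ with empty vector and 160780 with Tet3-CD, 50329 and 48100 in Tet3m/m, and 57528 and 36203 in Tet3-/-. The 11 neuroectoderm markers summed to 11125 and 11474 in Tet3+/+, 19784.5 and 19253 in Tet3m/m, and 11363 and 17300 in Tet3-/-. Their part in the ratios was not tested.

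**Figure D5:**
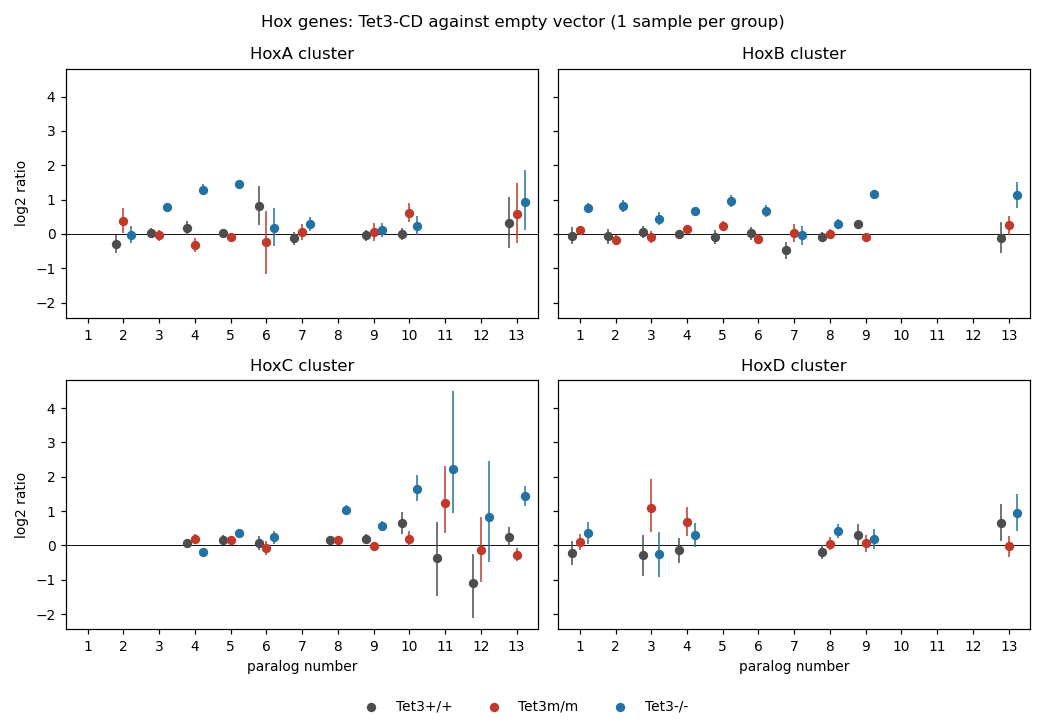
Log2 ratio of Tet3-CD to empty vector (y axis) by paralog number (x axis), with a panel for each cluster, a colour for each genotype and exact 95% counting intervals as bars, 1 sample per group. Tet3-/- points lie mostly above 0 in all clusters with a median of 0.62, while the Tet3+/+ and Tet3m/m points gather around 0.

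Between the empty vector samples of this experiment, 11 of 35 members were more than 1.5-fold higher and 11 lower in Tet3m/m than in Tet3+/+, where 20.2% and 16.1% of all genes were, and 1 was higher and 8 lower in Tet3-/- (15.4% and 11.7%). In Tet3m/m 6 of 10 HoxA members were lower and 2 higher by more than 1.5-fold. Their median log2 ratio was -0.71, and the HoxA neighbours had a median of -0.60. In HoxB 5 of 10 were higher and 1 lower by more than 1.5-fold, with a median of 0.69. Hoxd3 at 20.5 against 54.5 and Hoxd4 at 77.3 against 141 lay below Tet3+/+. Hoxa2 at 109 against 259, Hoxa9 at 209 against 781, Hoxc4 at 676 against 1189 and Hoxc6 at 363 against 433 also lay below it. So did Hoxa3 at 595 against 728 and Hoxa6 at 22.3 against 43.8. Others that fell at day 3 did not, since Hoxd1 read 278 against 158 (log2 ratio 0.81, 0.53 to 1.11) and Hoxa5 2316 against 1515 (0.61, 0.52 to 0.71). Hoxa4 at 398 against 357 (0.16) and Hoxc5 at 1230 against 1161 (0.08) had intervals that include 0. Hoxa2, Hoxa9, Hoxc4, Hoxc6, Hoxd3 and Hoxd4 were thus lower in Tet3m/m than in Tet3+/+ in each of the 3 experiments. They passed the test at day 3 and in the Dnmt1 experiment. The Tet3-CD experiment has no test, and the sources give its collection time differently. Hoxd13, which rose in both tested experiments, read 156 against 51.3 in the Tet3-CD experiment. Hoxb1 was higher in the day 3 and Tet3-CD experiments and did not pass the test in the Dnmt1 experiment.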

How the data were processed

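RNA was sequenced as mRNA libraries from NE cells after RA treatment, and 26 of the 35 samples of the series, its RNA-seq samples, were used. According to the study's methods the authors trimmed reads with Trim Galore 0.6.7, mapped them with STAR 2.7.9a and counted genes with featureCounts, with reads credited to the largest overlap. The genome build is given as mm39 in the methods and mm10 in the submitters' processing notes. The deposited values are a signal, gene counts that the authors divided by size factors of each sample, in 1 table per experiment, and tables were never set on one scale. Whole reads were recovered from the steps of the values (100.0% whole within 0.01), which gave the depths. No deposited column was left unused (0).

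Genes with a mean of at least 10 were tested on log2 of the value plus 1 with limma 3.58.1 (empirical Bayes with trend, all groups of an experiment in 1 fit), Benjamini-Hochberg adjusted over all genes, with calls at an adjusted p under 0.05 and a fold above 1.5. Fold changes on this scale understate those of low genes. The code was tested on simulated data. The sources do not say that samples of the transfection experiments came from separate cultures, so p values there measure the spread between these samples, which may be technical. Replicates differed more than counting error allows (median chi-square per gene 3.68 to 9.55 at day 3 and 1.40 to 2.57 in the Dnmt1 experiment, against 0.45 from counting alone). Columns of the Dnmt1 table for Tet3+/+ with empty vector bear the same name, so the pair was used without numbers. Deviations of samples with the same number did not go together (correlations of -0.10 to 0.08 at day 3 and -0.05 to 0.03 in the Dnmt1 experiment), so numbers were not taken as pairs.

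All Hox members may be named. Statistics are given for members past the test, other members by values, and other genes only from fixed lists. The members and lists were chosen with earlier results of these data known. Levels per kilobase use exon unions of the reference annotation, and neighbours are the 25 tested genes on each side of a cluster by gene order (positions for 97.0% to 97.2% of genes). Promoter windows are those of RefSeq on GRCm38.p6, and 22 Hox genes matched. The fits were repeated with pseudocounts of 0.1 and 5, a minimum mean of 50 or none, no fold limit, only the compared groups, a replicate block, TMM scaling, edgeR 4.0.16 and DESeq2 1.42.0 on recovered reads, the neighbours' median taken off, and each sample left out in turn. R 4.3.3, Python 3.11.15, pandas 2.3.3, scipy 1.17.1 and matplotlib 3.10.9 were used. WGBS, CUT&Tag and hMeDIP samples were not used here. A member and a cofactor that enter the counts are not reported here on their own.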

Additional observations from a re-analysis of the deposited data

Results flagged for a closer look

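The effect of the Dnmt1 plasmid differed between genotypes for the following Hox genes, by the interaction term of the limma fit over 2 samples per group with adjusted p values under 0.05 and a difference above 1.5-fold. In Tet3-/- against Tet3+/+ cells the log2 effect was larger by 0.99 for Hoxb1. In Tet3-/- against Tet3m/m cells it was larger by 1.05 for Hoxc13, 0.90 for Hoxb1 and 0.77 for Hoxb9, and the differences were -1.06 for Hoxc6, -0.78 for Hoxd1, -0.77 for Hoxc5, -0.72 for Hoxc8 and -0.63 for Hoxc9. In Tet3m/m against Tet3+/+ cells the difference was -0.59 for Hoxb9. The Hoxc13 difference was lost without Dnmt1 sample 2 of Tet3-/- (adjusted p = 0.0503), that of Hoxd1 without sample 2 of Tet3m/m with either vector or of Tet3-/- with empty vector (up to 0.109), and that of Hoxc9 without sample 1 of the same groups (up to 0.0615). The Hoxb9 difference between Tet3m/m and Tet3+/+ was lost in 8 of 12 fits with a sample left out (up to 0.234). Both differences against Tet3-/- share its samples, so they are not separate evidence.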

How the results depend on the processing

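In Tet3-/- against Tet3+/+ at day 3, 4 Hox genes passed with only the compared groups and 4 with DESeq2, where none did in the other fits of all samples. Without the fold limit the Dnmt1 plasmid gave 10 genes in Tet3+/+, 9 in Tet3m/m and 8 in Tet3-/-, and 8 genes differed in their Dnmt1 effect between Tet3-/- and Tet3+/+. The difference between Tet3m/m and Tet3+/+ (1 gene, Hoxb9) was 0 with pseudocounts of 0.1 and 5 and with TMM scaling. With the neighbours' median taken off, Hoxa5 at day 3 turned from -0.68 to 0.028. The cause was not tested. With each sample left out in turn, at day 3 the number of genes was 12 to 17 in Tet3m/m against Tet3+/+, 0 to 3 in Tet3-/- against Tet3+/+ and 6 to 9 in Tet3-/- against Tet3m/m. With empty vector the ranges in that order were 13 to 15, 17 to 21 and 23 to 25. For the Dnmt1 plasmid they were 1 to 3 in Tet3+/+, 4 to 5 in Tet3m/m and 1 to 4 in Tet3-/-, and for the differences 0 to 2 (Tet3m/m against Tet3+/+), 2 to 5 (Tet3-/- against Tet3+/+) and 8 to 11 (Tet3-/- against Tet3m/m). Where 1 sample was left in a group it was assumed to vary like the others.

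A replicate block gave 18, 0 and 9 genes in the day 3 comparisons, 25 between Tet3-/- and Tet3m/m with empty vector, 4 and 4 for the Dnmt1 plasmid in Tet3m/m and Tet3-/-, and 9 for their difference. No paired analysis was possible because the Tet3+/+ empty vector columns carry no numbers for the other comparisons. Of 902 rechecks of the 107 values past the test without leaving out a sample, 889 stayed past it, 13 did not and 0 changed sign (taking off the neighbours' median is counted apart, since it turned Hoxa5); with a sample left out 1103 of 1192 stayed, 89 did not and 0 changed sign.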
